A study of Mus musculus with 12 samples.

Results

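Untreated mouse embryonic fibroblasts (MEFs) that carry the 3KR form of E2F1 were compared with untreated wild-type (WT) MEFs. The 6 samples without treatment, 3 of each genotype, were taken by their labels out of the 12 samples of the series, and the genes compared were the autosomal genes that passed a filter on low counts, 14248 of the 15327 genes that passed it. The files hold 30594 identifiers of genes that are autosomal in GENCODE M21. All samples were primary MEFs at passage 3 from FVB embryos 13.5 days old, kept in 5% O2. The 3KR cells came from knock-in mice homozygous for an E2f1 allele in which the 3 lysines that can be acetylated are replaced by arginine, and the WT cells carried the unchanged gene. The other 6 samples of the series had the same genotypes and were treated with the DNA-breaking drug neocarzinostatin (NCS) at 250 ng/ml for 3 h. The labels number the samples of a group from 1 to 3 and do not say whether they came from separate embryos, so the p-values below measure the spread between these samples.

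E2F1 is a transcription factor that pairs with a DP protein on the promoters of genes for DNA replication and cell division, and the retinoblastoma protein and its relatives hold it in check. Acetylation of lysines next to its DNA-binding domain follows DNA damage, and the study asked what the loss of these lysines does to gene expression and to repair. MEF cultures are grown from dissociated embryos, so that cells of several tissues and body regions can be in the dish beside the fibroblasts.

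Counted reads per sample were 45279321, 37016067 and 36817729 in the WT samples and 37094856, 36084015 and 41069406 in the 3KR samples. A level of 3 counts, taken as the floor for counting error alone, is 0.0663 to 0.0831 CPM (counts scaled to the size of the library) at these depths. On the first principal component of log2 CPM, which held 72.62% of the variance, the genotypes separated. WT replicate 3 stood apart from WT replicates 1 and 2 on the second, which held 7.77%. The chi-square per gene was 9.366 and 9.27 between WT replicate 3 and the other WT samples, 2.271 between WT replicates 1 and 2, and 2.035 to 2.3 among the 3KR samples. Values without that sample are therefore given beside some of the counts below.

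The sex-linked genes also separated the genotypes. Xist, transcribed from the silenced X chromosome where there are several, had 48.9, 42.6 and 43.5 normalized counts (counts divided by the DESeq2 size factor of the sample) in the WT samples and 30649, 30599 and 30590.1 in the 3KR samples. Ddx3y, a helicase gene of the Y chromosome, had 5513, 5655 and 5370.3 in the WT samples and 11.1, 11.4 and 10.9 in the 3KR samples. The Y-linked genes Eif2s3y, Kdm5d and Uty had at least 866 normalized counts in each WT sample and at most 8.18 in each 3KR sample. Every WT sample thus had the RNA of male cells and every 3KR sample that of female cells. The effect of the 3KR allele and that of sex cannot be told apart in any result below, autosomal genes included.

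The labelled cell type was checked against fibroblast markers. All 16 were measured, and their summed level was 2290224, 2284132 and 2368219 normalized counts in the WT samples and 2696461, 2735244 and 2668636 in the 3KR samples. Col1a1, the fibrillar collagen chain that was their most abundant gene per kb of exon, had 94253 normalized counts per kb in WT and 116556 in 3KR samples. Vim, the intermediate filament protein of mesenchymal cells, had 146167, 146899 and 148523 normalized counts in the WT samples and 131118, 134799 and 130901 in the 3KR samples. No fibroblast marker was at the floor in any group.

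Of the 14248 autosomal genes, 3229 (22.7%) were higher and 3407 (23.9%) lower in 3KR than in WT MEFs at a false discovery rate (FDR) under 0.05 in edgeR. Changes of 2-fold or more, a fitted log2 fold change of at least 1 in either direction, were called for 629 genes (4.41%) higher and 592 (4.15%) lower. Without WT replicate 3 the counts were 3191 and 3330, with 636 and 594 at 2-fold or more, and 5985 of the 6636 calls (90.2%) were shared in direction. The normalized counts of the groups did not overlap for 7739 genes (54.3%). Among the 6636 called genes, 4228 had an absolute log2 fold change under 0.5, 1187 one from 0.5 to under 1, 908 one from 1 to under 2, and 313 one of 2 or more. Of the last, 163 were higher and 150 lower. The median log2 fold change of all autosomal genes tested was 0.00226, which the normalization holds near 0. Most called differences were smaller than 2-fold, in both directions. The shares of 22.7% higher and 23.9% lower are the background for the counts of every list below, and no list was tested against them.

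**Figure D1:**
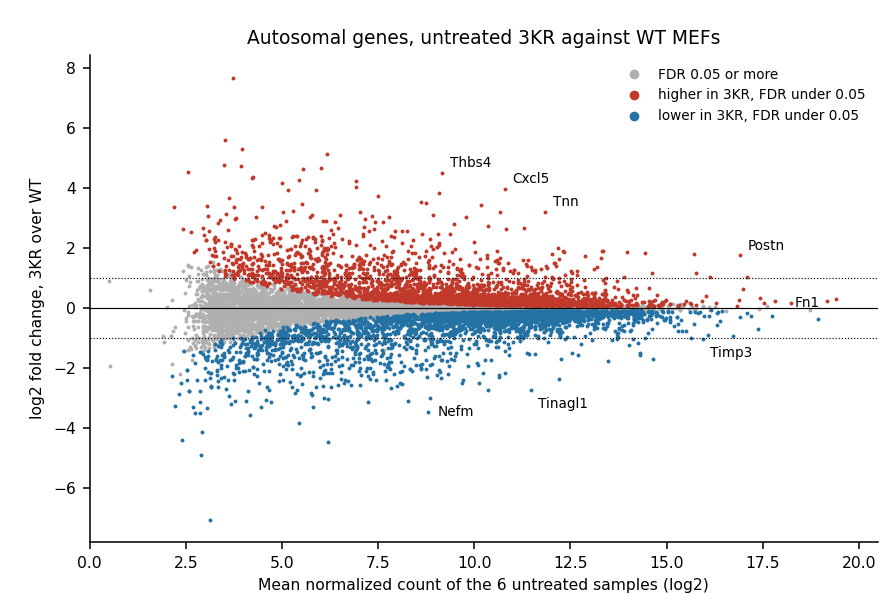
Each point is 1 autosomal gene, with the log2 of the mean normalized count of the 6 untreated samples on the horizontal axis and the log2 fold change of 3KR over WT on the vertical axis. Red marks the 3229 genes called higher and blue the 3407 called lower in 3KR MEFs at an FDR under 0.05, and the dotted lines mark 2-fold changes.

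The called genes were spread over the autosomes. Their share ran from 41.2% of the tested genes of chromosome 17 to 52.4% of those of chromosome 1, and the median log2 fold change of a chromosome lay between -0.02 and 0.03. Protein-coding genes were called more often (23.9% higher and 24.9% lower of 13256) than lincRNA genes (12.8% and 14.4% of 125) or pseudogenes (6.38% and 5.32% of 282), whose levels were not matched for this comparison. Among the called genes, 17 that were higher in 3KR MEFs had 3 counts or fewer in each WT sample, and 20 that were lower had 3 counts or fewer in each 3KR sample.

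Among well expressed autosomal protein-coding genes (mean log2 CPM of 3 or more) whose genotype ranges were separate, the 10 largest increases belonged to genes of secreted and matrix proteins, receptors, a chemokine and a transcription factor, and the 10 largest decreases to genes of regional and neural crest transcription factors, angiogenic factors and matrix proteins. Tnn, the matrix glycoprotein tenascin-N, had 681, 755 and 714 normalized counts in the WT samples and 6576, 6687 and 6598 in the 3KR samples. Every 3KR sample was far above every WT sample, a rise of 9.24 times (log2 fold change 3.20, SE 0.04, FDR 7.43e-25). Cpxm2, which encodes a secreted protein of the carboxypeptidase family, rose from 207, 173 and 199.7 to 2207, 2031 and 2152 (log2 fold change 3.45, FDR 9.92e-22). Lgr5, a receptor for R-spondins that strengthens Wnt signals, rose from 327, 326 and 294 to 2920.5, 2956 and 2962 (3.21, FDR 1.10e-21). Both groups were tight, and none of these genes had a WT sample near the 3KR range. Acan, the cartilage proteoglycan aggrecan, rose from 706, 700.0 and 625 to 4423, 4455 and 4239.9 (2.68, FDR 1.16e-22). Lpl, the lipase that frees fatty acids from lipoproteins, rose from 508, 524 and 477 to 3071, 3157 and 3199 (2.64, FDR 7.76e-22). The other genes among the 10 largest increases were Cxcl5 (3.98), the Wnt-binding protein gene Sfrp2 (3.04), the prostaglandin F receptor gene Ptgfr (2.80), the matrix proteoglycan gene Prelp (2.75) and the ETS transcription factor gene Erg (2.48).

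Among the decreases, Tinagl1, a secreted protein bound to the matrix, had 4766, 4836 and 5119 normalized counts in the WT samples and 698, 806 and 716 in the 3KR samples. All WT samples stood above all 3KR samples, 6.63 times higher on average (log2 fold change -2.74, SE 0.05, FDR 1.16e-22). Foxd1, a forkhead transcription factor of embryonic stroma, fell from 2287, 2194 and 2332 to 339.6, 355 and 342 (-2.72, FDR 5.73e-21). Col14a1, a collagen that sits on the surface of fibrils, fell from 7771, 7854 and 8040.4 to 1566, 1543 and 1539 (-2.35, FDR 4.85e-24). In each of these the 3KR samples lay close together and the WT samples formed a separate, higher group. Angpt2, a ligand of the endothelial receptor Tie2, fell from 2639, 2611 and 2747 to 555, 503 and 571 (-2.30, FDR 5.33e-21), and Pgf, the placental growth factor, fell from 768, 732 and 664 to 144, 144 and 155 (-2.29, FDR 4.19e-17). Tnfsf15, a ligand of the tumor necrosis factor family, fell from 1702, 1729 and 2228 to 354, 315 and 325 (-2.51), with WT replicate 3 the highest sample. Serpinb2, an inhibitor of plasminogen activators, fell from 1495, 1489 and 1197 to 229.8, 259 and 261 (-2.49), with WT replicate 3 the lowest WT sample. Without that sample the values were -2.38 and -2.58. Sox10 (-2.39) and Cdh19 (-2.24), described with their group below, were also among the 10 largest decreases.

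**Figure D2:**
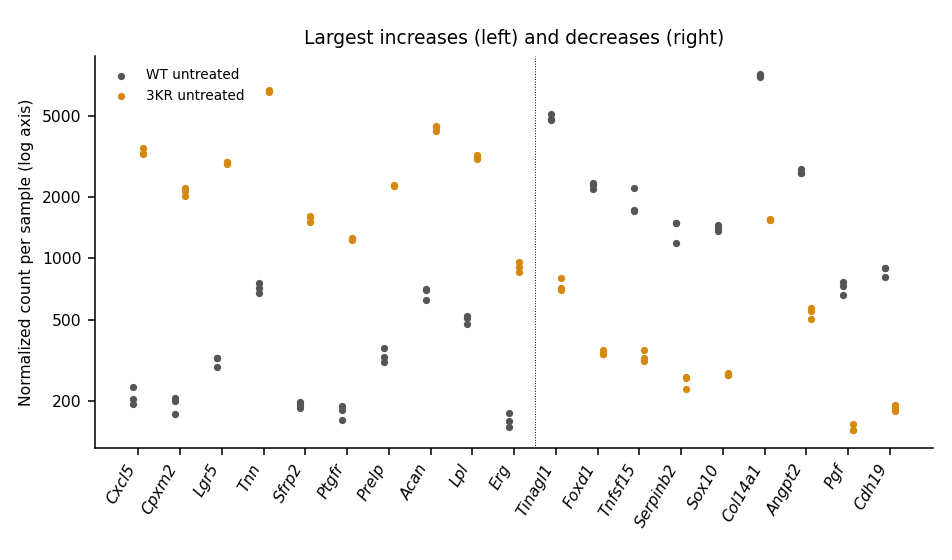
Normalized counts on a log axis for genes among the 10 largest increases and the 10 largest decreases, 1 point per untreated sample, WT in gray and 3KR in orange. The ranges of the genotypes are separate for every gene drawn, and the samples of a genotype lie close together.

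Genes of the cell cycle differed by small amounts, most of them in one direction. Of 48 tested genes of the G1/S transition and DNA replication, 37 rose and 2 fell in 3KR MEFs (77.1% and 4.17%), with a median log2 fold change of 0.29. Of 33 genes of G2/M and mitosis 29 rose (87.9%) and 4 were not called, with a median of 0.25. Of all autosomal genes 22.7% were higher and 23.9% lower. Without WT replicate 3, 34 G1/S genes rose and 3 fell, and 30 G2/M genes rose. Mki67, the proliferation marker Ki-67, had 4464, 4486 and 4891 normalized counts in the WT samples and 6317, 6593 and 6555 in the 3KR samples. The groups did not overlap, and the rise was 1.41 times (log2 fold change 0.49, SE 0.04, FDR 1.19e-10). Ndc80, a kinetochore protein, rose by a like amount (0.47), as did Chaf1b (0.49), a subunit of the chromatin assembly factor, and Cdca7 (0.49), a zinc finger protein under E2F control. Rrm2, the small subunit of ribonucleotide reductase and the most abundant gene of the G1/S list per kb, rose from 3747, 3782 and 3702 to 4501, 4716 and 4609 (0.29, FDR 2.61e-06). Cdc20, an activator of the anaphase-promoting complex, rose by 0.15 on the log2 scale (FDR 0.00130). The G1/S genes that fell were Cdc25a (-0.25), a phosphatase that activates cyclin-dependent kinases (CDKs), and Ccne1 (-0.19), which encodes cyclin E1.

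The E2F family itself moved little. Of 13 tested genes for E2F proteins, pocket proteins and DP partners, 5 rose and 3 fell (1 without 3KR replicate 1), and the median was 0.10. These are 38.5% and 23.1%, against 22.7% and 23.9% of all autosomal genes, so the share of decreases was near that of all genes. E2f1 had 1042, 1099 and 1296 normalized counts in the WT samples and 1125, 1111 and 1128 in the 3KR samples, and these overlapped (log2 fold change -0.03, FDR 0.710). The knock-in changes codons and leaves the gene in place, so this level does not check the genotype. E2f2, an activator of the same class, rose from 82.0, 68.0 and 97.3 to 129, 135 and 145 (0.72, FDR 0.000776). Among the pocket proteins, Rbl1 (p107) rose from 933, 821 and 821 to 1256, 1152 and 1182 (0.47, FDR 3.13e-07), and Rb1 (the retinoblastoma protein) fell from 583, 655 and 669 to 514, 465 and 498 (-0.37, FDR 0.000145). Those 2 pocket protein genes thus moved in opposite directions, each without overlap between the genotypes. Tfdp1, which encodes the partner protein DP1, rose by 0.22 (FDR 1.88e-06). Of 13 genes for enzymes that acetylate or deacetylate E2F1 and for its partners at DNA breaks, 6 rose and 1 fell (46.2% and 7.69%, median 0.14). The call of the gene that fell was lost when WT replicate 1, WT replicate 2, 3KR replicate 2 or 3KR replicate 3 was left out. Kat2b, an acetyltransferase reported to act on E2F1, rose by 0.28 (FDR 0.00108), and Smarca4, which encodes the remodeling ATPase BRG1, had a log2 fold change of -0.04 (FDR 0.344).

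Most p53 target and apoptosis genes were lower, and inhibitors of the cell cycle went both ways. Of 11 CDK inhibitor and D-type cyclin genes, 4 rose and 6 fell (median -0.19), and of 35 p53 target and apoptosis genes 5 rose and 21 fell (median -0.18), or 7 and 20 without WT replicate 3. Cdkn1a, the p53 target that encodes the CDK inhibitor p21, had 17086, 17068 and 18008 normalized counts in the WT samples and 9734, 9833 and 9882 in the 3KR samples. All 3KR samples were below all WT samples, and the ratio of means was 0.565 (log2 fold change -0.83, FDR 2.86e-17). Cdkn2a, the locus of p16 and p19ARF that rises as primary fibroblasts are passaged, fell from 3370.2, 3122 and 3258 to 1793, 1743 and 1671 (-0.91, FDR 4.85e-13). Cdkn1c (0.66), the imprinted gene of p57, and Cdkn2c (0.43), the gene of p18, rose. Pmaip1, which encodes the BH3-only protein Noxa, fell from 844, 872 and 968 to 245, 182 and 191 (-2.12, FDR 4.17e-16). Perp, a membrane protein of p53-dependent death and of desmosomes, fell from 349.6, 356 and 307 to 124, 90.5 and 115 (-1.63, FDR 6.67e-12). Phlda3, an inhibitor of Akt and the most abundant of the list per kb, fell by a smaller amount (-0.31). The p53 targets that rose most were Ddb2 (0.72), a sensor of ultraviolet damage, and Ddit4 (0.66), an inhibitor of mTORC1. Apaf1, a scaffold of the apoptosome, was at -0.16 (FDR 0.00159), and Trp73, a relative of p53, had at most 1.82 normalized counts in a sample and was not tested. Of 43 genes for the signalling and repair of double-strand breaks, 24 rose and 2 fell (1 without 3KR replicate 2). These are 55.8% and 4.65%, and the median was 0.18. Brca2, which acts in homologous recombination, rose from 271, 277 and 322 to 472, 517 and 490.1 (0.76, FDR 6.12e-08). Prkdc, the kinase of end joining, rose by 0.49 (FDR 9.92e-05), while Lig4, the ligase of the same pathway, fell (-0.30, FDR 0.000695). H2afx, the histone H2AX and the most abundant of the list per kb, rose by 0.18 (FDR 0.00266).

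Promoter sequences were available from RefSeq (GRCm38.p6) for 10703 of the tested autosomal genes, as 13691 windows of 300 bases that run from 250 before to 50 after a transcription start. E2F motifs were searched on both strands as the letters TTTCCCGC, TTTGGCGC, TTTCGCGC and TTTGCCGC, which can overlap one another and the other motifs given below, and the motifs were chosen after the lists' values had been seen. They were found in 505 of all windows (3.69%), in 155 of the 3187 windows of genes higher in 3KR MEFs (4.86%) and in 89 of the 3468 of genes lower (2.57%). Among genes changed by 2-fold or more they were in 9 of 552 windows of those higher (1.63%) and in 10 of 549 of those lower (1.82%), below the share of all windows. In the G1/S list 17 of 49 windows (34.7%) held 1, and in the G2/M list 1 of 29 (3.45%). The letters CCAAT, the core of many mitotic promoters, were in 37% of all windows and in 23 of the 29 windows of the G2/M list (79.3%). Other lists had like shares, such as 81.2% for cholesterol synthesis and 76.2% for circadian clock genes. A match describes the letters of a window and not a bound site. Stretches of 100 bases are printed as examples from genes that rose, and a part of these letters in the rise was not tested. The stretches come from chr2:72476119-72476218 for Cdca7, chr1:128359736-128359835 for Mcm6, chr11:98907993-98908092 for Cdc6, chr2:157204535-157204634 for Rbl1, chr7:135716488-135716587 for Mki67 and chr4:118437344-118437443 for Cdc20. Cdca7 and Cdc6 lie on the plus strand and the others on the minus strand, each stretch reads 5' to 3' along the gene, and capitals mark the E2F letters or, in Mki67 and Cdc20, CCAAT. Mcm6, a subunit of the replicative helicase (0.39), and Cdc6, which loads that helicase (0.32), were picked for their motifs.
Cdca7: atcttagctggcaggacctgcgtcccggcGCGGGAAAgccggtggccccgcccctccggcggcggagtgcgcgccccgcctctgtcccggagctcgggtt
Mcm6: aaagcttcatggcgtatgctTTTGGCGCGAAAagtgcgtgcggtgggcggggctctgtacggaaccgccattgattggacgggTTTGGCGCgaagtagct
Cdc6: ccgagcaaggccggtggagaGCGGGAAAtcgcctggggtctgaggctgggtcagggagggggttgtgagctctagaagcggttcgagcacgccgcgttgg
Rbl1: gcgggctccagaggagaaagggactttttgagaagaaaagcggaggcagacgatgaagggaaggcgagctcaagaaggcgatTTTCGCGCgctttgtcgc
Mki67: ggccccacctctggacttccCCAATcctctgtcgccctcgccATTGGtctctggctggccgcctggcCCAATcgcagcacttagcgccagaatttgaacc
Cdc20: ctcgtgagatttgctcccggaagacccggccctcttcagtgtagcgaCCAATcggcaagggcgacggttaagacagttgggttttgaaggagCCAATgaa

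Interferon-stimulated genes, which cells switch on when a virus or an interferon is sensed, were higher almost throughout. Of 42 tested, 38 rose and 1 fell in 3KR MEFs (39 and 1 without WT replicate 3), with a median log2 fold change of 1.26, against 22.7% and 23.9% of all autosomal genes and their median near 0. Oasl2, a protein of the oligoadenylate synthetase family, had at most 39.3 normalized counts in a WT sample and at least 228 in a 3KR sample. The lowest 3KR sample was several times above the highest WT sample (log2 fold change 2.97, SE 0.20, FDR 1.44e-11). Phf11d, a PHD finger gene induced by interferon, rose from 12.4, 10.1 and 24.8 to 124, 115 and 114 (2.90, FDR 5.14e-10). WT replicate 3 was the highest WT sample in both, and without it Phf11d was at 3.35. Ifitm3, a membrane protein that blocks virus entry and the most abundant of the list per kb, rose from 6407, 6385 and 6513 to 9222, 9883 and 8669 (0.52, FDR 4.80e-10). Its neighbour Ifitm1 was the member that fell, from 405, 389.6 and 376 to 194, 196 and 198, a level 1.99 times higher in WT MEFs (FDR 5.48e-09).

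The genes upstream of this response moved less. Of 26 tested genes for interferons, their receptors, sensors and signal proteins, 16 rose and 2 fell (median 0.31), and 1 fell when WT replicate 1, WT replicate 3, 3KR replicate 2 or 3KR replicate 3 was left out. Irf7, the transcription factor that amplifies the type I response, rose from 45.6, 56.8 and 73.5 to 257, 256 and 243 (2.11, FDR 2.37e-10), and Ifih1, the RNA sensor MDA5, rose from 105, 116 and 107 to 259, 254 and 270.0 (1.25, FDR 4.73e-09). Ifngr2, a chain of the interferon gamma receptor, fell from 2951, 2965 and 3193 to 2023, 2006 and 1968 (-0.61, FDR 1.19e-11). The interferon genes Ifna4, Ifnb1 and Ifng had 3 counts or fewer in each of the 6 samples, and Ifnb1 had 0 in all of them. Among 9 interferon-inducible GTPase genes, 6 rose and 3 fell (median 0.74), or 7 and 2 without WT replicate 3. Iigp1 rose from 30.7, 28.4 and 29.0 to 129, 131 and 119 (2.09, FDR 1.45e-09), whereas Irgm1, the most abundant of them per kb, fell from 1865, 2040.1 and 2241 to 1174, 1154 and 1266 (-0.78, FDR 5.98e-11). Both encode GTPases that act on vacuoles of intracellular pathogens, and both differed without overlap. Of 23 genes for MHC class I and antigen processing, 15 rose and 2 fell (median 0.35). H2-Q7, a nonclassical class I gene, had 22.4, 27.4 and 17.6 normalized counts in the WT samples and 119.9, 164 and 41.8 in the 3KR samples (2.25, FDR 1.39e-05). Its 3KR samples differed widely, 3KR replicate 3 being the lowest, and reads of the closely alike class I genes may be shared among them. Nlrc5, the transactivator of class I genes, rose from 28.2, 19.3 and 20.7 to 58.4, 55.1 and 53.6 (1.27, FDR 0.000618), and Calr, the chaperone calreticulin and the most abundant of the list per kb, fell by a small amount (-0.16, FDR 0.000140).

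The promoters of these genes often held the letters GAAANNGAAA, the core of the element bound by interferon regulatory and STAT complexes, on either strand. They were in 415 of the 13691 windows (3.03%), in 14 of the 37 windows of the interferon-stimulated list (37.8%) and in 6 of the 8 windows of the GTPase list. In all they were in 154 of the 3187 windows of genes higher (4.83%) and in 74 of the 3468 of genes lower (2.13%). Among genes changed by 2-fold or more, 41 of 552 windows of those higher (7.43%) and 18 of 549 of those lower (3.28%) held them. GTPase genes of both directions had a match, so Igtp (1.77), which rose, is printed beside Irgm1 (-0.78) and Gbp2 (-0.52), which fell. Isg15, a ubiquitin-like modifier (2.03), Ifit1, which binds viral RNA (2.41), and Oas3, which had 2.49, 2.03 and 4.14 normalized counts in the WT samples and 26.2, 28.1 and 18.2 in the 3KR samples (FDR 7.03e-05), were picked for their motifs. The stretches come from chr4:156200819-156200918, chr19:34640765-34640864, chr5:120777660-120777759, chr11:58199456-58199555, chr11:48871421-48871520 and chr3:142620563-142620662 of GRCm38.p6 in the order printed. Isg15, Oas3 and Irgm1 lie on the minus strand and the others on the plus strand, and capitals mark the motif, which overlaps itself in Isg15 and Irgm1.
Isg15: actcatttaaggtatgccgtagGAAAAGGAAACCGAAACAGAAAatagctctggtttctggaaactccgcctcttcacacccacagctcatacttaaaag
Ifit1: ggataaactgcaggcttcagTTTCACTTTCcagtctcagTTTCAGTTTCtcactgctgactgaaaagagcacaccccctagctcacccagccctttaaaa
Oas3: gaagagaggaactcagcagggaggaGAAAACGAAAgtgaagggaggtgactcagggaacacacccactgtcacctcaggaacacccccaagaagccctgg
Igtp: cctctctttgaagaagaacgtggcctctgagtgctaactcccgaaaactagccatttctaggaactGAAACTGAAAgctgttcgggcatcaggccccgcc
Irgm1: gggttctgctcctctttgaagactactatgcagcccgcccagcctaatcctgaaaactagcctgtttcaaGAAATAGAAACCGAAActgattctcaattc
Gbp2: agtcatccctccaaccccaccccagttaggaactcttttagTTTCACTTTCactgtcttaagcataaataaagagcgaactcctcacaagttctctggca

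Chemokine genes had the highest median of the 54 lists, 1.44. Of 20 tested, 17 rose, 13 of them by 2-fold or more. Cxcl14, the most abundant per kb, had 2296, 2264 and 2347 normalized counts in the WT samples and 6682, 6342 and 6606 in the 3KR samples. Its groups were far apart, with a ratio of 2.84 (log2 fold change 1.50, FDR 2.25e-20). Cxcl5, which attracts neutrophils, was 15.9 times higher in 3KR MEFs. Cxcl15, a neutrophil chemokine of the same gene cluster, rose from 20.7, 37.5 and 18.6 to 254, 213 and 245 (3.21, FDR 5.88e-13). Cxcl1, another member of the cluster, had 37.3, 27.4 and 36.2 in the WT samples and 292, 279 and 301 in the 3KR samples (3.09, FDR 4.00e-15). Cxcl3 had 1.66, 3.04 and 7.24 (WT) and 127, 141 and 151 (3KR) and was called higher (FDR 2.11e-13), as was Cxcl2 with 0, 0 and 1.03 (WT) and 16.1, 25.0 and 23.6 (3KR, FDR 1.09e-06). In the WT samples Cxcl2 did not exceed the floor of 3 counts, while every 3KR sample did. Cxcl1, Cxcl2, Cxcl3, Cxcl5 and Cxcl15 are all on chromosome 5, and Cxcl14 is on chromosome 13. GGGANNTTCC, the core of sites for NF-kappaB, was found on either strand in 197 of the 13691 windows (1.44%) and in 4 of the 17 windows of the chemokine list (23.5%), those of Cxcl1, Cxcl2, Cxcl3 and Cxcl10 (2.36). Among genes changed by 2-fold or more it was in 11 of 552 windows of those higher (1.99%) and in 8 of 549 of those lower (1.46%). The windows of those 4 genes are printed in part, capitals marking the motif, from chr5:90891145-90891244, chr5:90903799-90903898 and chr5:90786001-90786100 on the plus strand and chr5:92348969-92349068 on the minus strand. The first 3 hold the same 11 capitals.
Cxcl1: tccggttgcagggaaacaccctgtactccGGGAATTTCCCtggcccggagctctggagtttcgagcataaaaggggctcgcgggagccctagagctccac
Cxcl2: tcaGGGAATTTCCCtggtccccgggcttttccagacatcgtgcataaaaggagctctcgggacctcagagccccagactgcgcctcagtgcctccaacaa
Cxcl3: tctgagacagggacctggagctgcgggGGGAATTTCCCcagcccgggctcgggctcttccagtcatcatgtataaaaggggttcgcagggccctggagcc
Cxcl10: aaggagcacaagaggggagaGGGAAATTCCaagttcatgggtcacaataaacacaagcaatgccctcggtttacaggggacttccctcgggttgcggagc

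Other inflammatory groups were mixed. Of all autosomal genes 22.7% were higher and 23.9% lower. Of 16 cytokine genes 7 rose and 4 fell (43.8% and 25.0%, median 0.12). Of 24 genes for NF-kappaB subunits, feedback and targets 10 rose and 3 fell (41.7% and 12.5%, median 0.13). Of 15 complement genes 7 rose and 5 fell (46.7% and 33.3%, median 0.47). Il1rl1, the receptor of interleukin 33, rose from 9907, 9901 and 9313 to 34574, 34965 and 35556 (1.85, FDR 4.07e-23), and Il33, its ligand, fell from 548, 522 and 513 to 196, 162 and 148 (-1.66, FDR 8.49e-13). Receptor and ligand thus moved in opposite directions. Il11, a cytokine that fibroblasts make in response to TGF-beta, fell from 1603, 1743 and 1780.1 to 469.6, 483 and 445 (-1.88, FDR 1.86e-17). Tlr2 (1.69) and Cd14 (1.31), receptors of bacterial lipids, rose. Ptgs2, the inducible cyclooxygenase, fell from 27170.2, 27952 and 35689.6 to 10407, 10375 and 10390.1 (-1.55, FDR 6.11e-16). WT replicate 3 was its highest sample, and without it the value was -1.41. Tnfaip3, the NF-kappaB feedback protein A20, fell from 689, 679 and 742 to 303, 305 and 281 (-1.25, FDR 1.90e-11). Complement C3 rose from 31.5, 31.4 and 30.0 to 179, 126 and 162 (2.32, FDR 1.87e-09) and C4b by 1.48, while Cd59a, which blocks the membrane attack complex, fell (-0.64, FDR 7.26e-10).

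Markers of macrophages were higher as well. Of 23 tested, 21 rose and 2 were not called (median 1.0), and 1 fell when WT replicate 3 or 3KR replicate 3 was left out. The summed level of the 24 markers was 7705, 7468 and 6779.8 normalized counts in the WT samples and 13109, 13165 and 13118 in the 3KR samples. Lyz2, a lysozyme and the most abundant of them per kb, had 1865 normalized counts per kb in WT and 3011 in 3KR samples. Defining markers were present in all 6 samples. Csf1r, the receptor that macrophages need to survive, had 495, 479 and 429 in the WT samples and 1132, 1199 and 1140.2 in the 3KR samples (1.30, FDR 1.01e-14). Adgre1, which encodes F4/80, had 92.8, 115 and 121 (WT) and 307, 348 and 325 (3KR) (1.58, FDR 7.42e-11). Ptprc, the pan-leukocyte antigen CD45, had 61.3, 54.8 and 64.2 (WT) and 191, 177 and 202 (3KR) (1.65, FDR 4.48e-08). Each was higher in all 3KR samples than in any WT sample. Spi1 (1.66), the transcription factor PU.1, and Fcgr1 (2.06), the high-affinity Fc receptor, rose most. In bulk RNA, more cells of a type and more RNA per cell cannot be told apart, and the part of these cells in the interferon, chemokine and complement results was not tested.

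Markers of Schwann cells and the neural crest moved the other way. Of 19 tested, 1 rose and 15 fell (5.26% and 78.9%, against 22.7% and 23.9% of all autosomal genes), with a median of -1.41. Without WT replicate 3 the counts were the same and the median was -1.46. Their summed level was 21827, 21660.3 and 22089 normalized counts in the WT samples and 12953, 13173 and 13241 in the 3KR samples. Sox10, the transcription factor of crest-derived glia, had 1369, 1413 and 1462 in the WT samples and 269, 268 and 274 in the 3KR samples. Foxd3, a factor of crest precursors, had 435, 420.0 and 507 (WT) and 81.6, 82.2 and 80.0 (3KR) (-2.48, FDR 3.66e-15). Cdh19, a cadherin of Schwann cell precursors, had 898, 897 and 816 (WT) and 184, 178 and 192 (3KR) (-2.24, FDR 1.44e-17). None of these overlapped between genotypes, and all remained well above the floor in the 3KR samples. Mal, a proteolipid of myelin-forming cells, fell from 138, 127 and 135 to 20.2, 14.6 and 29.1 (-2.63, FDR 5.73e-10). Mbp, a gene of mature myelin, did not follow. It had 94.4, 76.1 and 107 (WT) and 117, 87.4 and 121 (3KR) (FDR 0.252). Pmp22, a myelin gene that fibroblasts express too and the most abundant of the list per kb (997 in WT and 1536 in 3KR samples), was the member that rose (0.62, FDR 5.43e-13). Of 8 tested neuron markers 2 rose and 4 fell (median -0.71), with Tubb3, a neuronal tubulin, most abundant at 839 per kb in WT and 448 in 3KR samples. The summed level was 7285, 7074 and 6832 in the WT samples and 4975, 4769 and 5032 in the 3KR samples, and Neurod1, Rbfox3 and Th were at the floor in all 6. Nefm, the medium neurofilament chain, fell from 850.0, 814 and 807 to 119, 90.5 and 98.2 (-3.01, FDR 3.13e-18), and Nefl, the light chain, from 84.5, 109.6 and 109.7 to 17.1, 12.5 and 19.1 (-2.62, FDR 2.30e-09). The neuron markers that rose were Isl1, a homeodomain factor of motor neurons and the hindlimb field, with 4.14, 4.06 and 1.03 (WT) and 65.5, 63.4 and 50.9 (3KR, FDR 7.50e-10), and Map2, a protein of microtubules (0.24, FDR 8.96e-05).

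Other cell types that MEF cultures can hold were checked in the same way. Of 13 muscle markers 6 fell (46.2%, against 23.9% of all autosomal genes) and 7 were not called (median -0.67). Their summed level was 5799, 5924 and 6093 in the WT samples and 2381, 2492 and 2543 in the 3KR samples. Desmin (Des), their most abundant gene at 1221 per kb in WT and 423 in 3KR samples, fell from 4478, 4569 and 4702 to 1523, 1627 and 1618 (-1.53, FDR 7.04e-20), and Nppb, which encodes a natriuretic peptide, fell too (-1.95). Myf5, Myf6, Ckm and 4 other muscle markers were at the floor in all 6 samples. Of 11 endothelial markers 3 rose and 3 fell, which is 27.3% each against 22.7% and 23.9% of all autosomal genes, and the median was 0.15 (0.30 without WT replicate 3 and 0.23 without 3KR replicate 1). Their sum, 4307, 4488 and 4414 in the WT samples and 8144, 8062 and 8325 in the 3KR samples, was mostly Flt1, a VEGF receptor with 266 per kb in WT and 501 in 3KR samples (0.91). Erg rose from 175, 159 and 150.1 to 855, 913 and 961 and Plvap, a diaphragm protein, by 2.14, whereas Esam (-2.44) and Emcn (-2.44), surface proteins of endothelium, fell. Cldn5, Robo4, Sox17 and Tie1 were at the floor, Pecam1 had at most 7.46 normalized counts in a sample, and Cdh5 had 15.7, 15.2 and 17.6 in the WT samples and 20.2, 23.9 and 14.5 in the 3KR samples (FDR 0.560). Of 6 epithelial markers 4 rose and 2 fell (1 without 3KR replicate 3), and the median was 1.07 (-0.61 over the members with at least 10 counts in every sample). Their sum was 708, 707 and 729.6 in the WT samples and 548, 655 and 607 in the 3KR samples. Krt19, a keratin and the most abundant at 239.9 per kb in WT and 124 in 3KR samples, fell (-0.96, FDR 8.71e-09), Cdh1, the epithelial cadherin, rose from 10.8, 5.07 and 10.3 to 42.3, 37.4 and 54.6 (2.33, FDR 8.33e-06), and Esrp1, Grhl2 and Krt5 were at the floor. Epcam had at most 9.31 normalized counts in a sample and was not tested.

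Of 7 mesothelial markers 2 rose and 1 fell (28.6% and 14.3%, against 22.7% and 23.9% of all autosomal genes), with a median of 0.62, and their sum was 358, 370.3 and 338 in the WT samples and 447, 439.9 and 424 in the 3KR samples. Msln, which encodes mesothelin, was the most abundant at 32.4 per kb in WT and 39.3 in 3KR samples (0.28, FDR 0.0919). Lrrn4, a membrane protein with leucine-rich repeats, had 0.828, 1.01 and 1.03 (WT) and 24.2, 25.0 and 37.3 (3KR) and was called higher (FDR 1.08e-07), its WT samples being at the floor. Bnc1, a zinc finger factor, rose (0.92) and Gpm6a, a membrane glycoprotein, fell (-1.17). Of 17 cartilage and bone markers 8 rose and 5 fell (47.1% and 29.4%). Their median was 0.20 (0.36 without WT replicate 1, 0.10 without WT replicate 2 and 0.09 without WT replicate 3), and the sum was 86615, 87239.8 and 82665 in the WT samples and 79985, 80336 and 81629 in the 3KR samples. Spp1, the secreted phosphoprotein osteopontin, was the most abundant at 23877 per kb in WT and 25869.9 in 3KR samples. Its call (0.11, FDR 0.0497) was lost when WT replicate 3 or any 1 of the 3KR samples was left out. Acan (2.68) and Comp (1.86), proteins of the cartilage matrix, rose, while Col2a1, the main cartilage collagen, fell from 23353, 23449 and 23749.6 to 9995, 10357 and 9903 (-1.23, FDR 4.07e-19). Bglap, Ibsp and Matn1 were at the floor. Of 7 adipocyte markers 3 rose and 4 were not called, with increases in Lpl and the fatty acid transporter Cd36 (1.39). The median was 0.10 (0.05 without WT replicate 2, 0.19 without 3KR replicate 2 and 0.06 without 3KR replicate 3). Their sum was 2619.6, 2751 and 2758 in the WT samples and 5584, 5616 and 5817 in the 3KR samples, Agpat2 being the most abundant at 389.9 per kb in WT and 399.7 in 3KR samples (0.03, FDR 0.711), with Cidec, Lep and Retn at the floor. Of 3 erythroid and megakaryocyte markers 2 rose (median 0.38), and the summed level of the list was 302, 275 and 262 in the WT samples and 395, 372 and 375 in the 3KR samples. Pf4, a platelet chemokine that macrophages make too, was the most abundant at 42.5 per kb in WT and 86.2 in 3KR samples (1.01), and the globin genes Hba-a1, Hba-a2, Hbb-bs, Hbb-bt and Hbb-y were at the floor. The part of these cell types in the results of other lists was not tested.

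Hox genes, which mark positions along the body axis and the limb, differed by their place in the cluster, most clearly in HoxA. In the HoxA cluster 4 of 11 tested genes rose and 7 fell, in HoxB 1 of 9 rose and 8 fell, in HoxC 6 of 9 rose and 3 were not called (1 of them fell without WT replicate 3), and in HoxD 6 of 7 rose and 1 fell. When the genes were grouped by paralog number, a grouping made after the values were seen, 1 of the 17 tested genes of groups 1 to 7 rose and 14 fell, with a median log2 fold change of -0.95. HoxC did not share this decrease, since of its 3 genes in those groups 1 rose and 2 were not called (median -0.07). Of the 16 genes of groups 9 to 13, 14 rose and 1 fell, with a median of 1.40, and of the 3 genes of group 8, 2 rose and 1 fell. Hoxa3, an anterior gene, had 662, 589 and 629 normalized counts in the WT samples and 152, 163 and 199 in the 3KR samples. Hoxa13, the last gene of the same cluster and active in the distal limb, had 46.4, 31.4 and 31.0 in the WT samples and 263, 263 and 203 in the 3KR samples. The genotypes did not overlap in either gene, and the directions were opposite (-1.87, FDR 3.71e-14, and 2.71, FDR 9.46e-13). Hoxd13, a digit gene, rose from 205, 205 and 203 to 1159, 1122 and 1104 (2.46, FDR 8.78e-19). Hoxa11 (2.08), Hoxd12 (2.02) and Hoxc13 (2.02) rose with it, and Hoxa5 (-1.74), Hoxb3 (-1.31) and Hoxd3 (-0.79) fell. Hoxb9, the most abundant gene of its cluster per kb, fell from 2789, 2789 and 3087 to 1862, 1746 and 1908 (-0.66, FDR 5.22e-11) and was the member of groups 9 to 13 that fell.

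**Figure D3:**
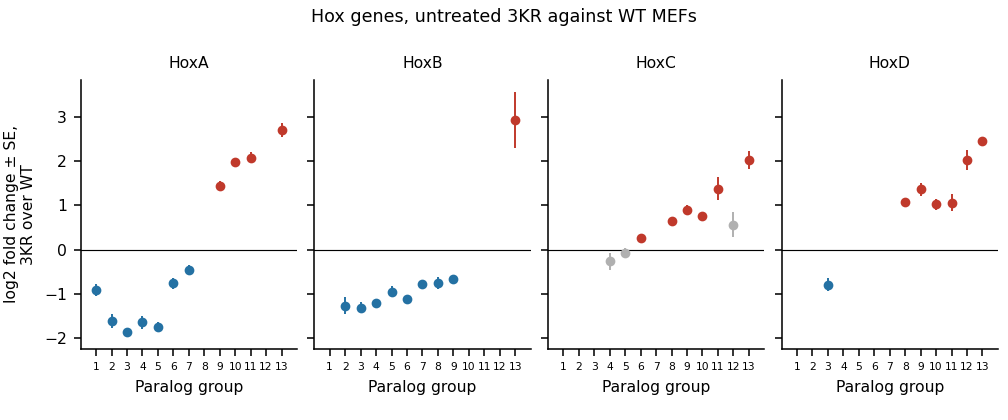
Log2 fold changes of 3KR over WT in untreated MEFs for the tested genes of each Hox cluster, by paralog group from 1 (anterior) to 13 (posterior), with bars of 1 standard error. Red genes were higher, blue genes lower and gray genes not called at an FDR of 0.05, and in HoxA the 7 genes of groups 1 to 7 are lower and the 4 genes of groups 9 to 13 higher.

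Other transcription factors of body regions changed by large amounts in both directions. Of 56 tested, 25 rose and 22 fell (44.6% and 39.3%, against 22.7% and 23.9% of all autosomal genes). Their median was -0.00 (-0.01 without WT replicate 1 or 2, 0.01 without 3KR replicate 1, 0.02 without 3KR replicate 3 and 0.04 without WT replicate 3). Tbx4, the T-box factor of the hindlimb, had 68.8, 49.7 and 66.2 normalized counts in the WT samples and 748, 725 and 714 in the 3KR samples. Pitx1, which acts upstream of it in the hindlimb, had 58.8, 78.1 and 73.5 in the WT samples and 808, 801 and 758 in the 3KR samples. Both groups of samples were tight and far apart, and the rise was 11.8 times (log2 fold change 3.55, SE 0.11, FDR 5.11e-18) and 11.3 times (3.50, SE 0.10, FDR 1.91e-18) in turn. Other limb genes of the list are described as examples. They were chosen after their values were seen, so they do not show a trend of limb genes. The forelimb factor Tbx5 rose from 52.2, 43.6 and 47.6 to 381, 439 and 365 (3.03, FDR 1.96e-15), the dorsal factor Lmx1b from 50.5, 32.5 and 52.8 to 321, 278 and 266 (2.65, FDR 2.39e-13), and Hand2, a factor of the posterior limb bud, from 62.1, 57.8 and 80.7 to 264, 283 and 262 (2.01, FDR 1.21e-11). Meis1, a partner of Hox proteins in the proximal limb, had 1303, 1352 and 1326 in the WT samples and 1273, 1362 and 1355 in the 3KR samples (FDR 0.978). Tbx15, the most abundant of the list per kb, rose by 0.83 (FDR 8.38e-16). In the other direction, Foxd1 fell (-2.72). Which body regions the cells of each culture came from is not in the labels, and its part in these differences was not tested.

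The matrix that fibroblasts lay down differed in composition. Of 16 fibroblast markers 13 rose and 2 fell (81.2% and 12.5%, median 0.57), against 22.7% and 23.9% of all autosomal genes. Of 30 collagen genes 16 rose and 10 fell (53.3% and 33.3%, median 0.17). Postn, the matricellular protein periostin, had 54461, 54622 and 57370.4 normalized counts in the WT samples and 189807, 188415 and 189646 in the 3KR samples. The 3KR samples were all more than 3 times above the WT samples (ratio 3.41, log2 fold change 1.76, SE 0.02, FDR 5.22e-25). Col6a3, a chain of microfibrillar collagen VI, rose from 23381, 23919 and 23428 to 83342, 84028 and 83156 (1.82, FDR 1.46e-24). Col24a1 (1.31), a minor fibrillar collagen, Col1a1 (0.30) and the surface protein Thy1 (0.46) rose too. Fn1, which encodes fibronectin, fell from 553729.8, 553171 and 585379 to 443950.2, 442104 and 444157 (-0.35, FDR 2.65e-12), and Vim fell by a small amount (-0.16). Of 22 elastic fibre genes 11 rose and 9 fell (median 0.03, and 0.05 without WT replicate 3). Eln, the core protein elastin, rose from 7526, 7571 and 6902 to 14473, 15021 and 14547 (FDR 6.96e-17), as did Emilin2 (1.20), a glycoprotein of the fibre. Efemp1, a fibulin, fell from 2900.4, 2819 and 2899 to 1014, 1002 and 941 (-1.55, FDR 3.30e-17), and Lox, the crosslinking oxidase and the most abundant of the list per kb, fell by a smaller amount (-0.26).

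Genes for adhesion to the basement membrane were lower more often than higher. Of 33 laminin, nidogen and integrin genes 5 rose and 18 fell (15.2% and 54.5%, against 22.7% and 23.9% of all autosomal genes), with a median of -0.22. Itgb1, the shared beta chain of many integrins, fell from 95323, 96304 and 100000.3 to 66627, 65679 and 66524 (-0.56, FDR 5.23e-16). Its partner Itga2, which makes a collagen receptor, fell from 721, 664 and 659 to 154, 179 and 175 (-2.02, FDR 5.09e-16). Lama4, a laminin alpha chain of mesenchyme and vessels, rose from 4859.7, 4958 and 5331 to 9688, 9792 and 9985 (0.95, FDR 2.84e-16). Of 10 CCN and thrombospondin genes 7 rose and 2 fell (median 0.54). Thbs4, a thrombospondin of tendon and muscle attachments, rose from 45.6, 59.9 and 38.3 to 1077, 1155 and 1050.2 (4.51, FDR 1.10e-20), a ratio of 22.8. Ccn5 rose from 4507, 4249.7 and 4427 to 16732, 16676 and 16297 (1.91, FDR 1.16e-22), and Ccn2, the connective tissue growth factor, fell from 65379, 66358 and 71191 to 33684, 34264 and 33784 (1.99 times higher in WT, FDR 8.43e-19). Of 21 matrix proteinase and inhibitor genes 9 rose and 8 fell (42.9% and 38.1%, median 0.14). Mmp9 (1.78), a gelatinase, rose, and Mmp15 (-1.74), a membrane-bound proteinase, fell. Timp3, an inhibitor bound to the matrix, fell from 85217, 86111 and 82062 to 40442, 41392 and 41502 (-1.04, FDR 5.07e-20). Of 15 smooth muscle and pericyte markers 4 rose and 9 fell (median -0.27, and -0.41 without 3KR replicate 3). Their sum was 327304, 326150.4 and 315365 in the WT samples and 252542, 252257 and 252659 in the 3KR samples. Acta2, the smooth muscle actin of activated fibroblasts and the most abundant at 73604 per kb in WT and 62059 in 3KR samples, fell (-0.25, FDR 8.18e-11), together with Actg2 (-0.85) and the adhesion protein gene Mcam (-0.97), while Myh11, a smooth muscle myosin, rose (0.61).

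Signalling lists held increases and decreases side by side. Of 38 genes for Wnt ligands, Frizzleds and secreted inhibitors 14 rose and 18 fell (36.8% and 47.4%, median -0.15). Of all autosomal genes 22.7% were higher and 23.9% lower. Secreted inhibitors of the Wnt pathway went in opposite directions. Sfrp2 rose from 191, 184 and 197 to 1615, 1508 and 1598 (3.04, FDR 4.83e-20), Sfrp4 fell from 1063, 1124 and 1059 to 364, 368 and 361 (-1.58, FDR 3.04e-16), and Wif1 fell from 96.9, 95.4 and 82.8 to 20.2, 26.0 and 11.8 (-2.27, FDR 4.17e-07). Dkk3, the most abundant of the list per kb, moved little (0.13, FDR 0.00305). Of 38 BMP and TGF-beta genes 12 rose and 18 fell (31.6% and 47.4%), with a median of -0.10 (-0.06 without WT replicate 3). The BMP antagonists also parted, Noggin (Nog) rising from 67.9, 71.0 and 70.4 to 183, 211 and 213 (1.53, FDR 1.54e-09) and Gremlin (Grem1) falling from 11549.6, 11238 and 12096 to 5409.6, 5609.7 and 5807 (-1.06, FDR 1.14e-17). Tgfbr3, the coreceptor betaglycan, rose (1.52), and Inhba, a subunit of activin, fell from 15969, 16222 and 17887 to 7975, 7815 and 8101 (-1.07, FDR 7.77e-17). Of 37 FGF, PDGF, VEGF and HGF genes 11 rose and 18 fell (29.7% and 48.6%, median -0.34). Pdgfra, a PDGF receptor of mesenchyme, rose from 4612, 4817 and 4875 to 15195, 15201 and 15161 (1.67, FDR 9.18e-22), more than its relative Pdgfrb (0.25). Fgf9, a ligand of limb and lung growth, rose from 4.14, 8.12 and 6.21 to 64.5, 52.0 and 56.4 (3.22, FDR 1.83e-08).

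Growth and imprinted genes were called in both directions. Of all autosomal genes 22.7% were higher and 23.9% lower, and the differences of the lists from these shares were not tested. Of 18 genes of the IGF axis 6 rose and 11 fell (33.3% and 61.1%, median -0.15), and of 29 imprinted genes 10 rose and 14 fell (34.5% and 48.3%), or 9 and 12 without WT replicate 3. The median of the imprinted genes was -0.11 (-0.05 without WT replicate 2 or 3KR replicate 2, and -0.07 without WT replicate 3). Igf2, the fetal growth factor expressed from the paternal allele, fell from 53566, 53106 and 55348 to 32077, 31508 and 31951 (-0.77, FDR 2.19e-17). H19, the maternal RNA next to it and the most abundant imprinted gene per kb, fell from 62831, 61828 and 66209.8 to 43704, 44503 and 44164 (-0.53, FDR 1.85e-14). Both members of this locus were thus lower in every 3KR sample. Dlk1, a paternally expressed gene of another cluster, rose from 2139, 2231 and 2239 to 8090.2, 8250.3 and 8169 (1.89, FDR 9.18e-22), and Peg10, derived from a retrotransposon, fell (-0.82). Igfbp3 (1.16) rose and Igfbp2 (-0.56) fell, both carriers of IGF proteins. Of 43 Slit, netrin, semaphorin and plexin genes 13 rose and 21 fell (30.2% and 48.8%, median -0.31). Sema5a was at 1.56 and Sema3e at -1.94, both guidance cues. Of 17 Eph receptor and ephrin genes 6 rose and 7 fell (35.3% and 41.2%). Their median was -0.04, from -0.10 without WT replicate 2 to 0.04 without WT replicate 3. It was 0.01 without 3KR replicate 2 and 0.00 without WT replicate 1. The receptor gene Ephb3 was at 1.11 and the receptor gene Epha7 at -0.72. Of 23 cadherin genes 10 rose and 8 fell (43.5% and 34.8%). Their median was 0.10, and 0.01 without WT replicate 2 and 0.20 without WT replicate 3. Cdh3, the placental cadherin, rose from 1339, 1349 and 1393 to 3842, 3822 and 3796 (1.48, FDR 5.07e-20), and Pcdh1, a protocadherin, fell from 1963, 1979 and 1966 to 469, 443 and 412 (-2.17, FDR 5.83e-20). Of 15 Notch pathway genes 9 rose and 2 fell (median 0.11), with increases in the receptor gene Notch3 (0.58) and Nrarp (2.32), a target that damps the pathway. Of 31 potassium channel genes 7 rose and 15 fell (22.6% and 48.4%, median -0.44), the share of increases being near the 22.7% of all autosomal genes. The auxiliary subunit gene Kcnab1 was at 1.70. The channel gene Kcna1, which went from 406, 409.9 and 379 to 86.7, 88.4 and 85.5, was at -2.20.

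Most lists for metabolism and stress had small shifts. Their shares of higher and lower genes are given for comparison with the 22.7% and 23.9% of all autosomal genes. Of 21 genes of cholesterol synthesis and its control 10 rose and 2 fell (47.6% and 9.52%, median 0.11). Stard4, a sterol carrier, was at 0.72 and Hsd17b7, an enzyme of the pathway, at -0.39. Of 26 hypoxia and glycolysis genes 12 rose and 5 fell (46.2% and 19.2%, median 0.08). Ndrg1 (0.72) and the abundant glycolytic enzyme gene Pkm (0.18) rose, and Vegfa (-0.66), an angiogenic factor, and Hk2 (-0.56), a hexokinase, fell, so targets of the same hypoxia factors went both ways. Of 27 genes of the ATF4 and unfolded protein responses 13 rose and 6 fell (48.1% and 22.2%, median 0.10). The counts were 15 and 8 without WT replicate 3, and 3 fell without WT replicate 2. Trib3, a pseudokinase induced by ATF4, rose from 1943, 1877 and 1784 to 3531, 3532 and 3416 (0.90, FDR 6.33e-13). Of 34 Nrf2 and antioxidant genes 13 rose and 12 fell (38.2% and 35.3%), with a median of 0.06 (0.01 without WT replicate 3). Gsta4, a glutathione transferase, rose from 1003, 959.7 and 939 to 2767, 2674 and 2902 (1.52, FDR 6.38e-17), Sod3, the extracellular superoxide dismutase, rose (1.31), and Nqo1, a quinone reductase, fell (-0.58). Gpx1, a glutathione peroxidase and the most abundant per kb, was at 0.01 (FDR 0.846). Of 24 immediate-early transcription factor genes 6 rose and 13 fell (25.0% and 54.2%, median -0.17), the share of increases being near that of all genes. The nuclear receptor gene Nr4a1 was at 0.55 and the zinc finger gene Egr2 at -0.69. Of 18 circadian clock genes 11 rose and 3 fell (61.1% and 16.7%, median 0.27). Npas2 (1.43), a partner of the activator BMAL1, and Bhlhe41 (1.14), a repressor, were highest. Of 18 genes often used as references 2 rose and 7 fell (11.1% and 38.9%), or 4 and 7 without WT replicate 3. The sign of their median (-0.00) changed with the sample left out (0.03 without WT replicate 1). Gapdh had 1359, 1253 and 1319.5 normalized counts in the WT samples and 1299, 1284 and 1369 in the 3KR samples (FDR 0.982), while Actb was lower in every 3KR sample (-0.29, FDR 2.93e-10), the transferrin receptor gene Tfrc was at -0.76 and Polr2a, the large subunit of RNA polymerase II, at 0.19.

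**Figure D4:**
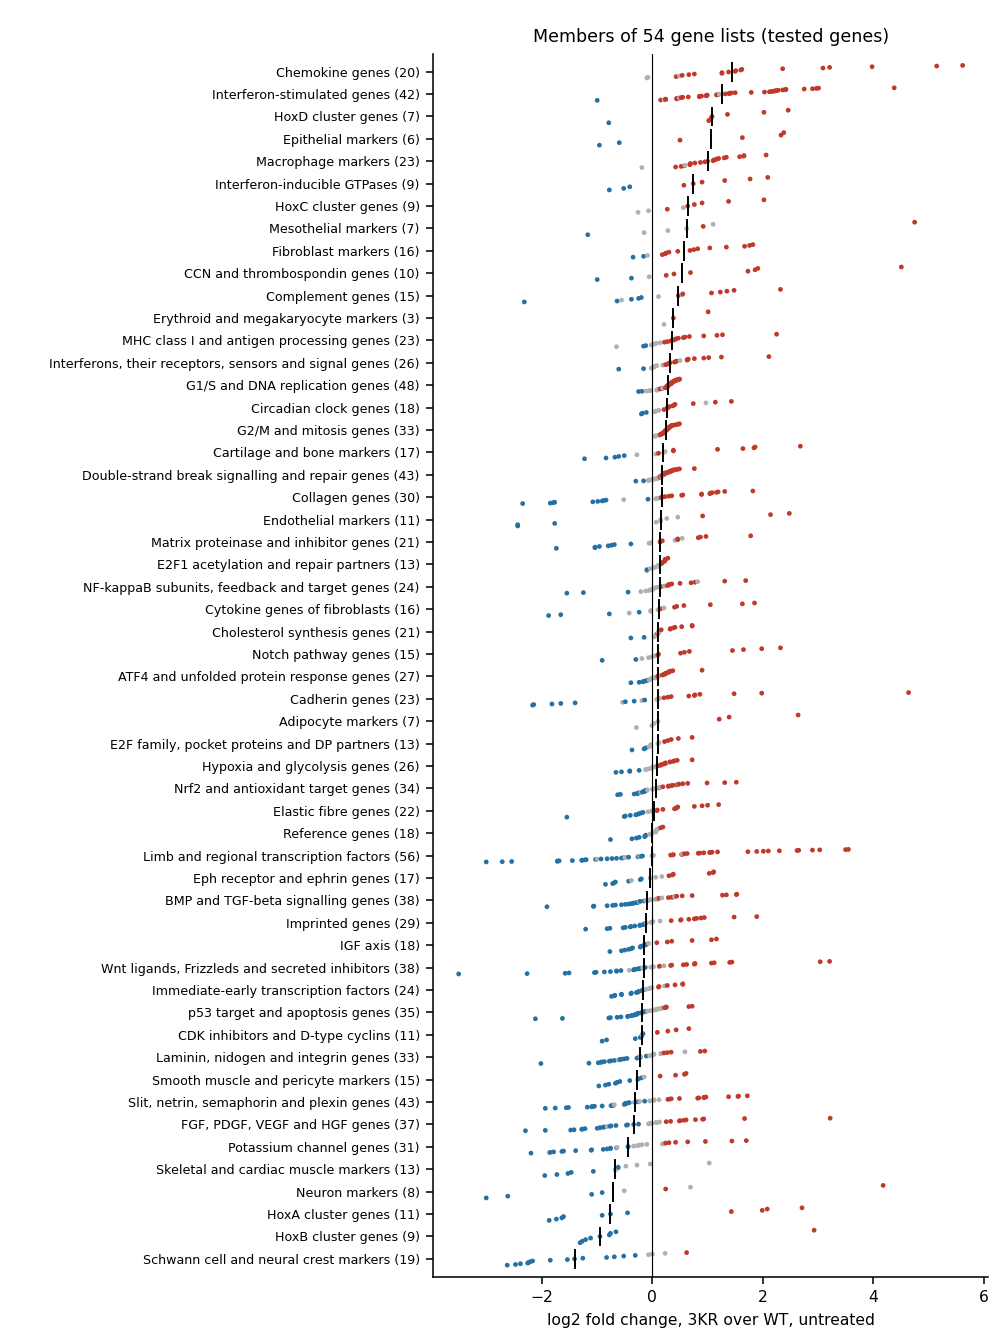
Log2 fold changes of 3KR over WT in untreated MEFs for the tested members of the 54 gene lists, 1 point per gene and the number tested in brackets, with a black bar at the median. Red and blue points were called higher and lower at an FDR under 0.05, and the medians run from -1.41 for Schwann cell and neural crest markers to 1.44 for chemokine genes.

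The same genotype contrast was also measured after NCS, in samples that enter the untreated comparison through the filter, the normalization and the estimate of the spread and that may come from the same cultures. There 3329 autosomal genes (23.4%) were higher and 3441 (24.2%) lower in 3KR MEFs. Of the 3229 genes higher without treatment, 2388 (74.0%) were higher and 21 lower after NCS, and of the 3407 lower genes 2693 (79.0%) were lower and 13 higher. Among changes of 2-fold or more, 541 of 629 (86.0%) and 519 of 592 (87.7%) were called in the same direction. Tbx4 was at 3.55 without and 3.82 with NCS, Tnn at 3.20 and 3.30, Foxd1 at -2.72 and -2.72, and Sox10 at -2.39 and -2.63. The medians of the leading lists were 1.26 and 1.08 for interferon-stimulated genes, 1.44 and 1.54 for chemokines, 1.0 and 0.83 for macrophage markers, -1.41 and -1.66 for Schwann cell and neural crest markers, and 0.25 and 0.51 for G2/M genes, differences that were not tested. The difference between the treatments, tested as an interaction, was called for 543 of the 14248 genes.

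How counts were assigned to strands is not stated, so a gene that overlaps another on the opposite strand may hold some of its reads. This holds for 71 of the 212 genes described here.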

How the data were processed

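Gene expression was measured by sequencing of stranded mRNA libraries in 12 MEF samples, 3 per genotype and treatment. The authors deposited raw read counts per Ensembl gene, made by their labels with TopHat on mm9 and HTSeq, without versions or the strand setting. Names and chromosomes were taken by identifier from GENCODE M21 for 32938 of 37991 identifiers. edgeR 4.0.16 (R 4.3.3) normalized counts by TMM, filtered low counts with filterByExpr and fitted a quasi-likelihood model with 1 coefficient per group to all 12 samples. FDR values are Benjamini-Hochberg adjusted over the 15327 genes tested, two-sided, with a threshold of 0.05, and log2 fold changes are 3KR over WT. The common biological coefficient of variation was 3.95%. Normalized counts are raw counts divided by DESeq2 1.42.0 size factors, sums and ratios are of these, and a level at the floor is 3 counts or fewer in every sample compared. The fits were also tested on simulated data.

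The named genes were, among autosomal protein-coding genes with a mean log2 CPM of at least 3, over 3 counts in each untreated sample and no overlap between genotypes, the 10 largest called changes in each direction, then in each list up to 2 called members per direction and the most abundant member, and genes the study plotted. Not every gene that this rule takes is described. The 54 lists and their members were chosen with earlier results of these data known. The limb genes, Isl1, Map2, Lrrn4 and the genes picked for promoter motifs were chosen after their values were seen. Counting error alone sets the floor, 0.0663 to 0.0831 CPM at 36084015 to 45279321 counted reads per untreated sample. Alternatives were DESeq2 size factors, the DESeq2 Wald test, no filter, at least 10 counts in every sample, the 6 untreated samples alone, a replicate block, leaving out each untreated sample, and, chosen after seeing the data, leaving out both libraries of WT replicate 3. Genes of the X, Y and mitochondrial chromosomes and unlisted identifiers were left out of the counts because the sexes differed. Plots were drawn with matplotlib 3.10.9.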

Additional observations from a re-analysis of the deposited data

Results flagged for a closer look

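The genotype difference was not the same with and without NCS for 543 of the 14248 autosomal genes, by an interaction term of the edgeR fit at an FDR under 0.05. For the genes among them that are described above, the number in brackets is the log2 fold change of 3KR over WT after NCS minus that without treatment, so that a negative number is a lower ratio after the drug. Many of these genes were described for their large untreated difference, which is also the value subtracted here. That choice favors smaller differences after NCS, so the balance of smaller and larger ones below is not a result about the drug.

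Among genes higher in untreated 3KR MEFs, the rise was smaller after NCS for Lgr5 (-0.41), Erg (-0.81), Ddit4 (-0.19), Oasl2 (-1.38), Cxcl15 (-1.20), Tlr2 (-0.66), Pmp22 (-0.19), Col6a3 (-0.14), Postn (-0.19), Eln (-0.63), Ccn5 (-0.18), Nog (-0.78), Tgfbr3 (-0.71), Pdgfra (-0.16), Igfbp3 (-0.70), Dlk1 (-0.18), Sema5a (-0.29), Ephb3 (-0.32), Stard4 (-0.40), Bhlhe41 (-0.59) and Isg15 (-0.56). Igfbp3, for example, was at 1.16 without and 0.46 with the drug (SE of the difference 0.07, FDR 2.00e-06), and Tgfbr3 was at 1.52 and 0.81 (SE 0.08, FDR 1.31e-05). The genotype difference was called without treatment and not after NCS for Cdkn1c, at 0.66 without and 0.12 with NCS (FDR after NCS 0.174, difference -0.54, FDR 0.00210), Prkdc, at 0.49 without and -0.16 with NCS (FDR after NCS 0.183, difference -0.65, FDR 0.00556), Nlrc5, at 1.27 without and -0.13 with NCS (FDR after NCS 0.728, difference -1.40, FDR 0.0485) and Notch3, at 0.58 without and -0.08 with NCS (FDR after NCS 0.148, difference -0.66, FDR 1.71e-06). The rise was larger after NCS for Mki67 (0.20), Cdc20 (0.19) and Il1rl1 (0.18), and Msln, not called without treatment, was at 0.28 and 1.08 (difference 0.80).

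Among genes lower in untreated 3KR MEFs, the decrease was smaller after NCS for Cdkn1a (0.16), Il11 (0.87), Ptgs2 (0.51), Col2a1 (0.17), Actg2 (0.26), Acta2 (0.10), Ccn2 (0.28), Inhba (0.56), Hk2 (0.44), Tfrc (0.52) and Actb (0.12). Il11 was at -1.88 without and -1.02 with the drug (SE of the difference 0.08, FDR 9.62e-07), and Inhba was at -1.07 and -0.51 (SE 0.05, FDR 9.62e-07). The decrease was larger after NCS for Col14a1 (-0.31), Angpt2 (-0.26), Gbp2 (-0.40), Fn1 (-0.14), Igf2 (-0.18), Igfbp2 (-0.27), H19 (-0.23) and Epha7 (-0.40).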

How the results depend on the processing

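Each result was computed again under the alternatives, of which leaving out both libraries of WT replicate 3 was chosen after seeing the data. Of the 208 log2 fold changes of described genes, all that were called kept their direction under every alternative that tested the gene, and all but that of Spp1 kept their side of the threshold. This holds for the described genes only. Some called genes that the naming rule takes and that are not described lost their call under an alternative, for example at an FDR of 0.124. Spp1 (0.11, FDR 0.0497) was not called with at least 10 counts in every sample (0.10, FDR 0.0909), without WT replicate 3 (0.04, FDR 0.303) or without any 1 of the 3KR samples. With at least 10 counts in every sample, 424 genes were higher by 2-fold or more against 629 and 380 lower against 592, from a smaller set of tested genes. The numbers of genes higher and lower were 3174 and 3206 in DESeq2, 3228 and 3208 in the 6 untreated samples alone, 3427 and 3245 with no filter, 2919 and 3375 with at least 10 counts in every sample, 3328 and 3468 with a replicate block, 3321 and 3319 with DESeq2 size factors, and 3630 and 3568 without both libraries of WT replicate 3. Which direction had more genes thus differed with the setting. DESeq2 size factors shifted the median log2 fold change by 0.00560 and library totals shifted it by 0.0173.

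Among the lists, 32 of the recomputed counts of called members differed by more than 1.5 times from the reported count and 1372 differed by less or not at all. Without WT replicate 3, both counts were the same for 23 of the 54 lists. Beside those given with their lists, at least 10 counts in every sample left 1 epithelial, 1 mesothelial and 1 neuron marker higher, and left the HoxB gene that rose untested. Without both libraries of WT replicate 3, 17 cholesterol genes were higher against 10, 8 laminin, nidogen and integrin genes against 5, and 5 reference genes against 2. The median of the neuron markers was -0.99 without WT replicate 3, against -0.71. Medians of short lists depended on the filter. That of the epithelial markers was 0.33 with no filter and 0.51 in the 6 untreated samples alone, against 1.07. That of the mesothelial markers was 0.27 with at least 10 counts, against 0.62, and that of the erythroid and megakaryocyte markers 0.11 with no filter and 0.68 with at least 10 counts, against 0.38. With no filter the cytokine genes had a median of 0.06, against 0.12, the endothelial markers 0.08, against 0.15, and the adipocyte markers 0.04, against 0.10, and the sign for the Eph and ephrin genes changed (0.04). The median of the antioxidant genes was 0.11 with no filter and 0.10 in the 6 untreated samples alone, against 0.06.

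The limits are those of the design. The 3KR cultures were female and the WT cultures male, the embryos behind the replicates are not named, and body region and cell mixture were not recorded, so none of these can be told apart from the allele. WT replicate 3 differed from its group, and the strand setting of the counting is not given.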
